A study of Mus musculus with 6 samples.

Results

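The 34 genes described here encode the contractile apparatus of smooth muscle, or build, anchor or control it. They were a listed set, from Acta2 and Myh11 to Tns1 and Jph2, matched by symbol to the probe sets of an expression array. All 34 were found among 18193 genes with a probe set, and all 34 were among the 12735 genes bright enough to be tested. The levels come from whole bladders of mouse embryos at embryonic day 18.5, with 3 arrays of Get1 -/- embryos (numbered 1 to 3) and 3 arrays of Get1 +/- embryos (numbered 4 to 6). Get1, also known as Grhl3, encodes a transcription factor of the grainyhead family that acts in covering epithelia, and the series asked which transcripts differ in bladders that are defective without it. The control embryos carry 1 intact Get1 allele, so the comparison is of no intact allele with 1, and no wild-type group was used here. The sources used here do not say how the allele was made or whether a sample was a pool, so the spread between arrays, which the p-values rest on, may be partly technical.

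Smooth muscle forms the detrusor, the muscle coat that empties the bladder. A calcium signal activates myosin light chain kinase, phosphorylated myosin then pulls on actin filaments, and the filaments are anchored at dense bodies in the cytoplasm and dense plaques at the membrane. The serum response factor SRF binds CArG boxes in regulatory DNA, and with its partner myocardin it switches on most of these genes. In a whole bladder a level reflects both the number of muscle cells and the RNA per cell, and these cannot be told apart.

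No member passed the test between genotypes, yet 31 of the 34 had a higher mean in Get1 -/- than in Get1 +/- bladders. Over all genes tested, 0.448% were called higher, 0.0628% lower and 0.51% in either direction, and 45.1% had a difference above 0. The median log2 difference of the members was 0.24, against -0.03 over all genes. The 6 members with a difference over 0.5 were Ldb3, Pdlim3, Des, Synpo2, Ppp1r12b and Cnn1. The actins, the myosin heavy chain, the light chain kinase and the tropomyosins had differences of 0.17 or less. Differences are Get1 -/- minus Get1 +/- on the scale log2(signal + 16), SE is limma's moderated standard error, and adjusted p is limma's with Benjamini-Hochberg adjustment over all 12735 genes, with a threshold of 0.05. For a single gene, the smallest two-sided p that exact permutation allows with 3 arrays per genotype is 0.1.

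CArG boxes of the strict form lie close to the start of few of the members searched. The windows that hold one are shown because SRF, itself a member, is the common regulator of the set. Looser forms of the box were not searched for. RefSeq promoter windows (assembly GRCm38.p6, 250 bases before to 50 after the start) were matched by symbol for 29 members, and those of Nexn, Myocd, Actg2, Myh11 and Tagln were not searched here. The strict CArG box, searched by its defining letters and identical in form on both strands, was found for 4 of them (13.8%), Srf, Myl9, Vcl and Ldb3, against 1.81% of 27025 genes with a window. Each stretch below runs 5′ to 3′ on the gene's own strand with the box in capitals, and lies upstream of the start.
Srf: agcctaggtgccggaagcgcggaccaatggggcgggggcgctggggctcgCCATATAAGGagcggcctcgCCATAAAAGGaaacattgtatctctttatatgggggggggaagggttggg
Myl9: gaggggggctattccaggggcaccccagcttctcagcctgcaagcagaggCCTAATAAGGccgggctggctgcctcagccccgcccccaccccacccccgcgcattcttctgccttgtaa
Vcl: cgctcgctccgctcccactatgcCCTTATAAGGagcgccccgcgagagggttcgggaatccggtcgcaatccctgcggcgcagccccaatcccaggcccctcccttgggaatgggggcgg
Ldb3: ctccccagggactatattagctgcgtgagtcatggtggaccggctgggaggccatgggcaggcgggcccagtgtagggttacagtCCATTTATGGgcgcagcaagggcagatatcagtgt
The Srf stretch lies at chr17:46556175-46556294 on the minus strand, with boxes that begin 82 and 62 bases before the start. The Myl9 stretch is chr2:156775253-156775372 on the plus strand, with its box 161 bases before the start. The Vcl stretch is chr14:20929148-20929267 on the plus strand, with its box 227 bases before the start, and the Ldb3 stretch is chr14:34588682-34588801 on the minus strand, with its box 35 bases before the start and 109 bases before another annotated start of the gene. A match is a description of letters, not of binding. The 4 genes had differences of -0.04 (Srf), 0.35 (Myl9), 0.23 (Vcl) and 1.29 (Ldb3), and none of the 4 passed the test.

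Over all probe sets the arrays had median signals of 58.2 (array 1) to 72.4 (array 5), upper quartiles of 336 (array 1) to 372 (array 3) and highest signals of 81923 (array 6) to 108984 (array 5), with correlations over probe sets of 0.941 to 0.958 within genotypes and 0.936 to 0.956 between them. The probe set of Grhl3 itself read 76.6, 21.5 and 120 in Get1 -/- and 143, 133 and 126 in Get1 +/- bladders (difference -0.95, SE 0.44, limma adjusted p = 0.655). Since the altered part of the gene is unknown here, this probe set may check nothing. The number of arrays limits the precision. The titles give array 1 another leading number than the other 5 arrays, and what it marks is not stated, so values without array 1 are given below. The signals of the members with a difference over 0.5 are plotted by array.

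**Figure D1:**
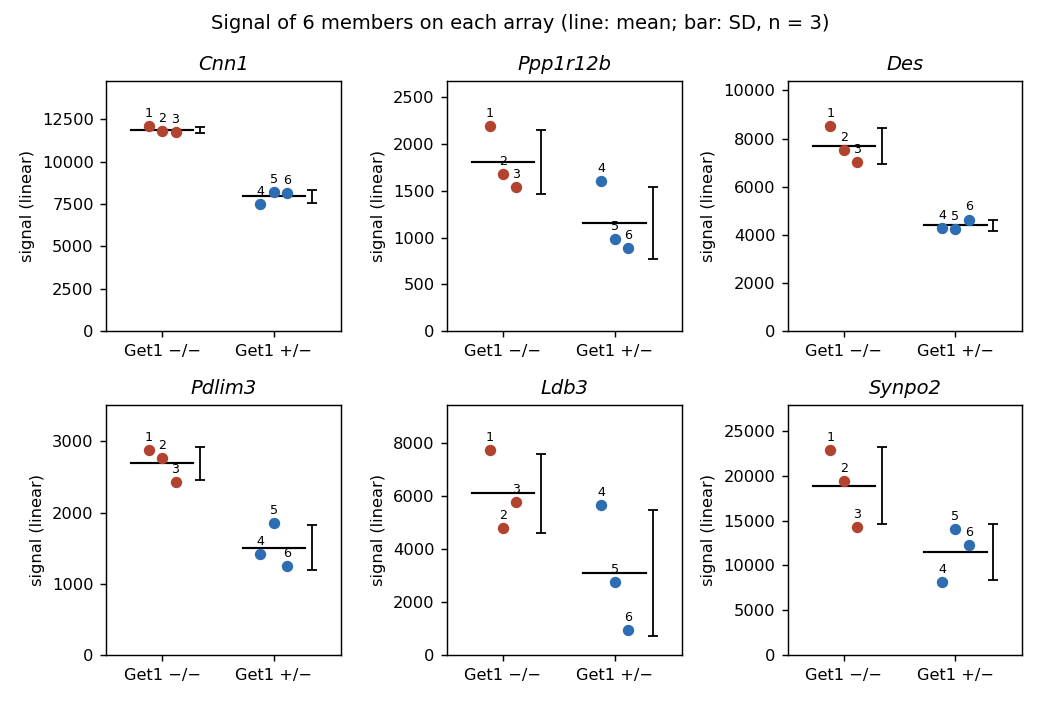
Linear signal (vertical axes, from 0) of the 6 members with a log2 difference above 0.5, in Get1 -/- (left, arrays 1 to 3) and Get1 +/- (right, arrays 4 to 6); points are arrays, lines are means and bars are SDs (n = 3). For Cnn1, Des, Pdlim3 and Synpo2 every Get1 -/- array lies above every Get1 +/- array, and for Ppp1r12b and Ldb3 array 4 overlaps the Get1 -/- range.

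The thin filament genes include the actins and the proteins that lie along actin. Acta2, smooth muscle alpha actin, read 38014, 36845 and 35562 in Get1 -/- and 36246, 39244 and 30733 in Get1 +/- bladders (difference 0.06, SE 0.20, limma adjusted p = 0.975). Its groups overlapped, and the lowest and highest readings were both Get1 +/-. Actg2, the gamma actin of visceral muscle, read 36638, 37188 and 36678 in Get1 -/- and 33084, 35244 and 29957 in Get1 +/- bladders (difference 0.17, SE 0.20, adjusted p = 0.897, limma). Its groups did not overlap, but the gap was small beside the spread among Get1 +/- arrays. The tropomyosins, which run along the actin filament, differed less: Tpm1 by 0.09 and Tpm2 by 0.06, each with its lowest reading on array 6.

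Cnn1 differed most among the thin filament genes. It encodes calponin, an actin-binding protein of differentiated smooth muscle that slows myosin. Its signal was 12084, 11797 and 11750 in Get1 -/- and 7501, 8195 and 8143 in Get1 +/- bladders. The groups lay well apart, with a log2 level of 13.54 ± 0.02 in Get1 -/- and 12.96 ± 0.07 in Get1 +/- bladders (SD, n = 3 each, difference 0.58, SE 0.19, limma adjusted p = 0.48). Cald1, caldesmon, which also restrains myosin on actin, read 29075, 25982 and 27799 in Get1 -/- and 24648, 23822 and 22717 in Get1 +/- bladders, with groups that did not overlap (difference 0.22, adjusted p = 0.859, limma). Tagln, the actin cross-linker transgelin, differed by 0.24 and Smtn, smoothelin, by 0.24, both with overlapping groups. Lmod1, leiomodin, which starts new actin filaments, differed by 0.47, but 1 array carried much of this: array 1 read 3626, against 1857 and 1872 on the other Get1 -/- arrays and 2260, 1339 and 1554 in Get1 +/- bladders. Without array 1 its difference was 0.15. All 9 thin filament genes had a difference above 0 (median 0.22), and 0 were called.

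The motor and its switches showed small differences with overlapping groups. Myh11, the smooth muscle myosin heavy chain, read 21708, 21976 and 19616 in Get1 -/- and 20989, 21209 and 17217 in Get1 +/- bladders (difference 0.10, SE 0.21, limma adjusted p = 0.957). Mylk, the light chain kinase that starts contraction, read 42058, 41580 and 42291 in Get1 -/- and 44550, 43472 and 35249 in Get1 +/- bladders (difference 0.04, SE 0.20, adjusted p = 0.987, limma). Both had their lowest reading on array 6. Myl9, the regulatory light chain that the kinase phosphorylates, read 23097, 17578 and 17718 in Get1 -/- and 19082, 19725 and 9258 in Get1 +/- bladders (difference 0.35, limma adjusted p = 0.871). Without array 6 the differences of these 3 genes were -0.0018 (Myh11), -0.07 (Mylk) and -0.0072 (Myl9).

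The phosphatase that ends contraction has a targeting subunit and an inhibitor in the set. Ppp1r12b, a myosin phosphatase targeting subunit, read 2189, 1679 and 1544 in Get1 -/- and 1599, 987 and 886 in Get1 +/- bladders. Array 4 lay within the Get1 -/- range (difference 0.67, SE 0.29, limma adjusted p = 0.625). Ppp1r14a, the inhibitor also called CPI-17, differed by 0.11 with overlapping groups (adjusted p = 0.966, limma).

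Of the regulators, Myocd, myocardin, read 24135, 16936 and 16235 in Get1 -/- and 20629, 19542 and 7364 in Get1 +/- bladders (difference 0.39, SE 0.41, limma adjusted p = 0.888). The low reading on array 6 set the sign: without it the difference was -0.10. Srf read 1930, 1365 and 1181 in Get1 -/- and 1613, 1360 and 1551 in Get1 +/- bladders (difference -0.04, SE 0.25, adjusted p = 0.988, limma), so its highest and lowest arrays were both Get1 -/-.

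The intermediate filament genes stood higher. Des, desmin, the main intermediate filament of muscle, read 8518, 7509 and 7030 in Get1 -/- and 4289, 4255 and 4640 in Get1 +/- bladders. The lowest Get1 -/- reading lay far above the highest Get1 +/- one. The log2 levels were 12.91 ± 0.14 in Get1 -/- and 12.11 ± 0.07 in Get1 +/- bladders (SD, n = 3 each), a 1.74-fold difference of 0.80 (SE 0.20), and its adjusted p of 0.281 was the lowest of the set (limma). Synm, synemin, which joins desmin filaments to anchors, read 10112, 7329 and 6183 in Get1 -/- and 6279, 4956 and 5338 in Get1 +/- bladders (difference 0.49, SE 0.25, limma adjusted p = 0.715), with an overlap of arrays 3 and 4.

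All 10 genes of dense plaques, dense bodies and their PDZ-LIM scaffolds had a difference above 0 (median 0.30), and 0 were called. Pdlim3, a PDZ-LIM protein that binds alpha-actinin, read 2881, 2768 and 2430 in Get1 -/- and 1413, 1857 and 1251 in Get1 +/- bladders (difference 0.85, SE 0.23, limma adjusted p = 0.332). Synpo2, an actin-bundling protein of smooth muscle dense bodies, read 22925, 19421 and 14347 in Get1 -/- and 8107, 14107 and 12310 in Get1 +/- bladders (difference 0.73, SE 0.29, adjusted p = 0.59, limma). The groups of both were separate, those of Synpo2 only just. Actn1, alpha-actinin, the cross-linker of these anchors, read 17334, 15254 and 13983 in Get1 -/- and 13020, 10555 and 10563 in Get1 +/- bladders, again without overlap (difference 0.45, SE 0.21, limma adjusted p = 0.667).

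Ldb3, a PDZ-LIM scaffold best known from striated muscle Z-discs, had the largest difference and the widest spread. It read 7726, 4794 and 5763 in Get1 -/- and 5641, 2730 and 932 in Get1 +/- bladders. The Get1 +/- arrays lay far apart, and array 4 overlapped the Get1 -/- arrays (difference 1.29, SE 0.58, adjusted p = 0.643, limma), and without array 6 the difference was 0.60. Vcl, vinculin, which links integrin adhesions to actin, differed by 0.23, Flna, filamin A, an actin cross-linker, by 0.16, and Tns1, tensin, an adhesion protein, by 0.32. Csrp1, a LIM protein, differed by 0.29, Nexn, nexilin, an actin-binding protein, by 0.26, and Pdlim7 by 0.12. All of these 6 had overlapping groups.

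The genes of calcium handling and the membrane had a median difference of 0.19, with 4 of 6 above 0. Cav1, the coat protein of caveolae, read 20693, 15433 and 14671 in Get1 -/- and 14606, 13910 and 10491 in Get1 +/- bladders, and its groups did not overlap by a narrow margin (difference 0.38, SE 0.24, limma adjusted p = 0.778). Pcp4, a calmodulin-binding peptide, had the lowest difference of the set, with 9400, 10091 and 9098 in Get1 -/- and 12037, 11127 and 8613 in Get1 +/- bladders (-0.14, SE 0.22, adjusted p = 0.936, limma). It was below 0 in each fit that left out 1 array, and no other member was. Kcnmb1, the beta subunit of the large-conductance calcium-activated potassium channel, had a difference of -0.13. Jph2, junctophilin, which tethers the sarcoplasmic reticulum to the membrane, had 0.29, Casq2, calsequestrin, which stores calcium there, 0.19, and Pln, phospholamban, the brake of the calcium pump, 0.18. The groups of these 4 overlapped, and the brightness of Kcnmb1 and Pln was low, with readings from 95.4 to 470.

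**Figure D2:**
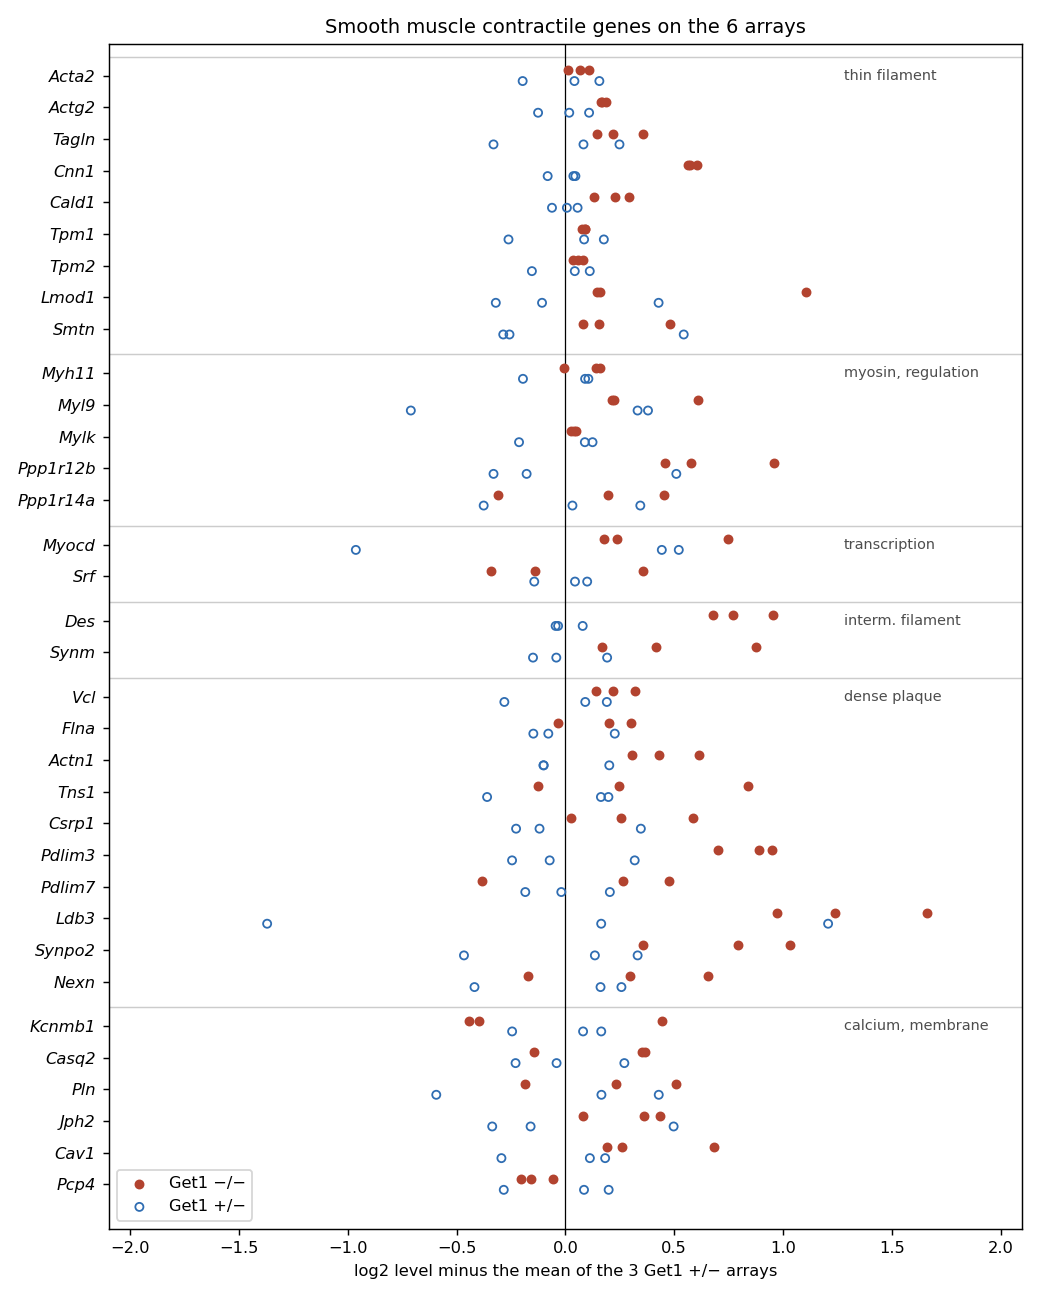
Log2 level of each of the 34 members minus the mean of the 3 Get1 +/- arrays (horizontal axis), by role, with filled points for the 3 Get1 -/- arrays and open points for the 3 Get1 +/- arrays. In 8 genes all filled points lie right of all open points, and Ldb3 and Myocd have an open point far to the left, which is array 6.

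In 8 of the 34 members (23.5%) all Get1 -/- arrays lay above all Get1 +/- arrays: Cnn1, Des, Pdlim3, Synpo2, Actn1, Cald1, Cav1 and Actg2. Among all genes tested this order held for 6.07%, and 7.36% had the opposite order, which 0 members had. With each array centred on its median, 5 members had separate groups, and the share over all genes was not counted in that setting. At an unadjusted p under 0.05 limma gave 5 members higher (Des, Pdlim3, Cnn1, Synpo2 and Ppp1r12b, 14.7%) and 0 lower, against 3.63% and 4.3% of all genes. The members were chosen with earlier results known and vary together, so these shares carry no test.

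The members also varied together from array to array within a genotype. Array 1 was the highest of the 3 Get1 -/- arrays for 25 members, against 30.4% of all genes, and array 3 was the lowest for 24, against 28.2%. Relative to the Get1 +/- mean, the median of the members was 0.44, 0.25 and 0.12 on Get1 -/- arrays 1 to 3 and 0.08, 0.06 and -0.10 on Get1 +/- arrays 4 to 6. Over all genes these medians lay between -0.07 and 0.06. Each Get1 -/- median of the members lay above each Get1 +/- median. The distance between arrays 1 and 3, both Get1 -/-, was larger than that between arrays 3 and 4, the closest pair of unlike genotype. Arrays 1 and 6, also of unlike genotype, lay farthest apart.

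Of all 6 arrays, array 1 was the highest for 21 members and array 6 the lowest for 17. Over all genes array 1 was the highest for 15% and the lowest for 24.2%, and array 6 was the lowest for 23% and the highest for 32.2%. Without array 6 the number of members above 0 was 23 of 34, against 31 with it, and the median was 0.25. Without array 1 it was 31, with a median of 0.16, and without both it was 24, with a median of 0.15. Over all genes the share above 0 was 45.1% with all arrays. That share was 47.6% without array 6, 48.7% without array 1 and 50.8% without both. In the 6 fits that left out 1 array, 21 members kept a difference above 0 throughout, Pcp4 stayed below 0, and 12 turned sign in some. Des, Pdlim3 and Cnn1 kept differences of at least 0.72, 0.72 and 0.54, and 0 of the 34 passed the threshold in any of them.

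**Figure D3:**
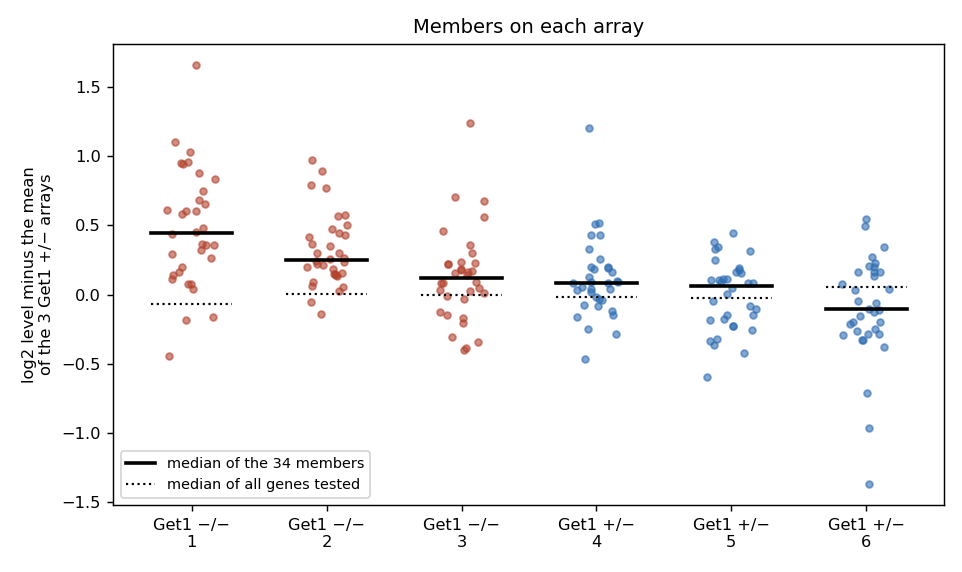
Log2 level of the 34 members (points) on each array minus the mean of the 3 Get1 +/- arrays (vertical axis), with the median of the members (solid) and of all genes tested (dotted). The median of the members is 0.44 on Get1 -/- array 1 and -0.10 on Get1 +/- array 6, and the point sets of neighbouring arrays overlap widely.

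Several members have very bright probe sets, a range of the scale in which differences were small among genes in general. Of the 11 members with a mean log2 level over 14, all 11 had a difference above 0, between 0.04 and 0.39 (median 0.17). The median absolute difference of the 202 genes in that range was 0.09, and the median SD within genotypes was 0.14 for the members and 0.14 for all these genes. The 11 members between 12 and 14 had a median difference of 0.38, where 1188 genes had a median absolute difference of 0.14, and the 12 members under 12 had 0.25, where it was 0.24 for 11345 genes. Whether bright probe sets are compressed at the top of the scale was not tested.

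A total of 21 members had more than 1 probe set, and other probe sets of the same gene often differed more than the brightest. Of 37 other probe sets bright enough to test, 31 had a difference above 0 and 22 a larger one than the brightest probe set of their gene, with a median of 0.42. Tpm1, at 0.09 on its brightest probe set, had 0.64 and 0.84 on others, Cald1 had 0.57 to 0.77 on 4 others, and Actn1 had 0.91 and 0.26. For Ldb3 the order was the reverse, with -0.11 and -0.01 on its other probe sets, so its large difference rests on 1 of 3. Des had 0.32 on its other, much dimmer probe set, with overlapping groups, against 0.80. Kcnmb1 had 1.12 on its other probe set, against -0.13. Probe sets of unequal sign were also seen for Pdlim7 and Pln. Of the 71 member probe sets tested, 0 passed over 24461 probe sets, of which 0.27% were called. The probe sets of Acta2, Cald1, Srf and Casq2 carry the suffix by which the array's maker marks probes that can match other transcripts.

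**Figure D4:**
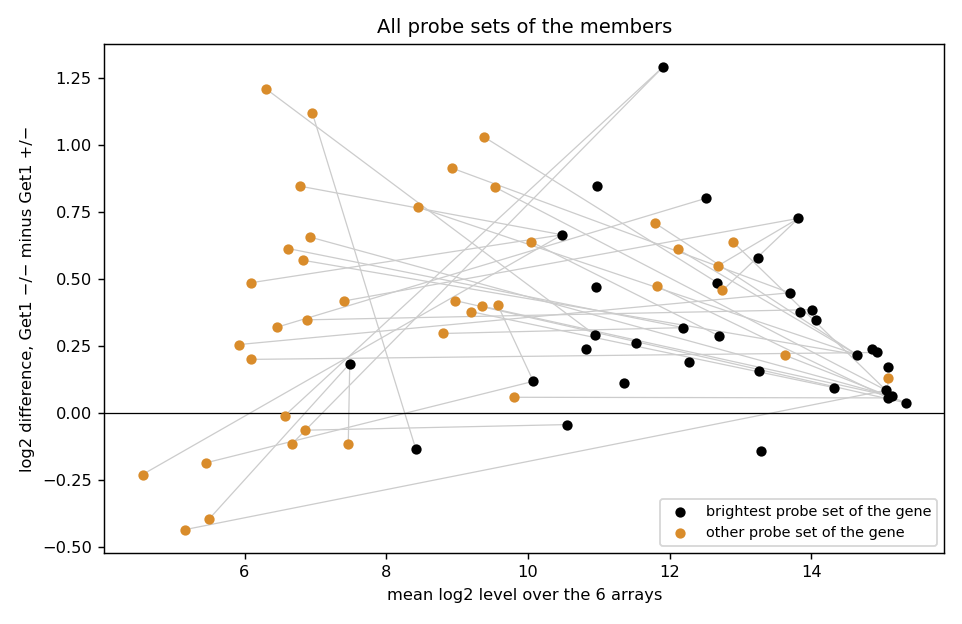
Log2 difference, Get1 -/- minus Get1 +/- (vertical axis), against mean log2 level over the 6 arrays (horizontal axis) for all 73 probe sets of the members; grey lines join other probe sets (orange) to the brightest one of their gene (black). The brightest probe sets above 14 lie between 0.04 and 0.39, and most other probe sets of these genes lie higher.

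Genes that work with the members were read from further lists. Of 38 tested genes of the contractile cytoskeleton and its adhesions, 0 were called, 26 had a difference above 0 and the median was 0.16. Mustn1, a small nuclear protein of the musculoskeletal system, read 1609, 1031 and 1234 in Get1 -/- and 670, 623 and 333 in Get1 +/- bladders (difference 1.27, SE 0.32, limma adjusted p = 0.284). Dtna, dystrobrevin of the dystrophin complex, read 1250, 968 and 618 in Get1 -/- and 355, 488 and 231 in Get1 +/- bladders (difference 1.36, SE 0.35, limma adjusted p = 0.3). Itga5, the fibronectin receptor subunit, and Hspb1, an actin-associated heat shock protein, had differences of 0.71 and 0.79 (adjusted p = 0.513 and 0.52, limma). All 4, picked as those with the smallest p, had groups that did not overlap. Of the 38 genes 9 had separate groups higher in Get1 -/- and 1 lower, against 6.07% and 7.36% of all genes.

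Of 22 tested genes that carry signals to the contractile apparatus, 0 were called and 16 had a difference above 0 (median 0.10). Kcnma1, the pore of the channel that Kcnmb1 modulates, had 0.64, Atp2b4, a plasma membrane calcium pump, 0.95, Rock1, a kinase that inhibits myosin phosphatase, 0.33, and Cacnb2, a calcium channel subunit, -0.50 (limma adjusted p from 0.627 to 0.807). Of 22 tested cofactors of SRF and factors of muscle fate, 0 were called and 9 had a difference above 0 (median -0.14). Mrtfa, a myocardin-related cofactor of SRF, had -0.52, Notch3, a receptor of vascular smooth muscle, -0.50, and the hedgehog readouts Gli1 and Ptch1 had -0.67 and 0.44 (limma adjusted p from 0.622 to 0.724). The readings of Cacnb2 and Gli1 were low, from 18.2 to 88.8, around the filter's signal of 39.74, and the groups of both overlapped.

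**Figure D5:**
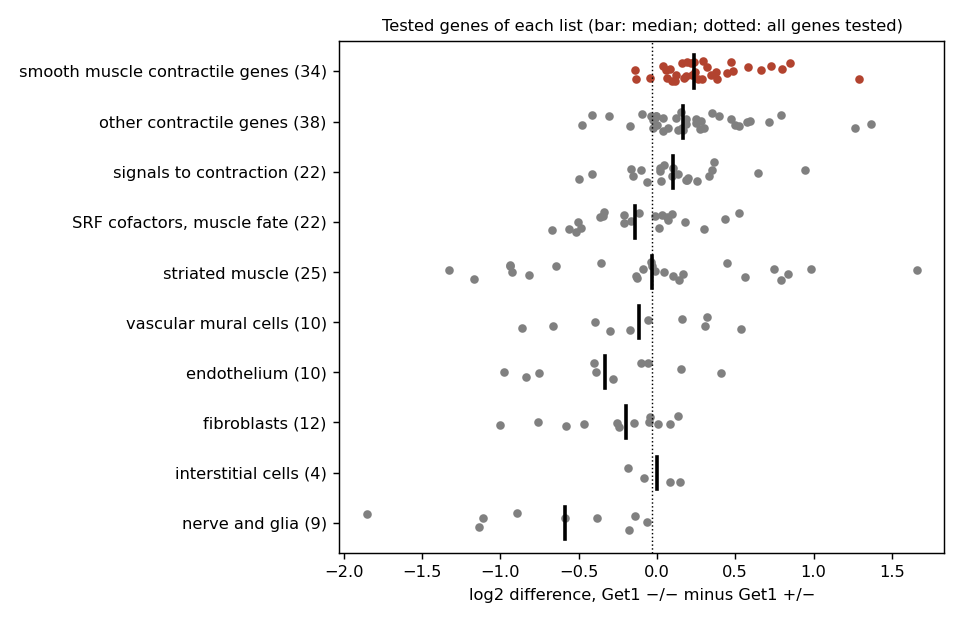
Log2 difference, Get1 -/- minus Get1 +/- (horizontal axis), of the tested genes of each list, with its median as a bar and the median of all genes tested as a dotted line; numbers are genes tested. The contractile genes have a median of 0.24, and the medians of mural, endothelial, fibroblast and nerve genes lie below 0.

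Several members, among them Des, Ldb3, Casq2, Jph2, Pln and Nexn, are also made by striated muscle, whose markers were read on the same arrays. Of 25 tested striated markers 0 were called, 11 had a difference above 0 and 14 one below 0 (median -0.03). The summed signal of all 27 with a probe set was 54330 to 68650 in Get1 -/- and 51070 to 58710 in Get1 +/- bladders, and 4 bright genes, Acta1, Tnnt2, Myl4 and Tnnt3, held most of it. These 4 summed to 54510, 45640 and 43040 in Get1 -/- and 45020, 40460 and 40970 in Get1 +/- bladders, highest on array 1. The other 21 tested ones summed to 9014, 22980 and 11230 in Get1 -/- and 10460, 18100 and 10020 in Get1 +/- bladders, lowest on array 1. Of the 25 markers 12 had their lowest reading of all arrays on array 1, and 5 read there under a signal of 39.74, the brightness that a gene's mean had to reach to be tested: Tnni1, Myoz2, Mybpc1, Neb and Myod1. Des and Ldb3 had their highest readings on that array, as had Acta1, Myl4 and Tnnt3 of the 4 bright markers. Casq1, the calsequestrin of fast skeletal muscle, read 1019, 1769 and 1345 in Get1 -/- and 292, 413 and 588 in Get1 +/- bladders (difference 1.66, SE 0.32, limma adjusted p = 0.127), and passed in 3 of 17 alternative fits. Tnnt3, Tnnc2 and Nppa had 0.75, 0.56 and 0.98. Differences over 0.5 were found for 6 markers: Casq1, Tnnt3, Tnnc2, Nppa, Tnni2 (0.83) and Myl7 (0.79). Differences below -0.5 were found for 7 markers, Tnni1 (-1.33), Mylpf (-1.17), Mybpc1 (-0.94), Actn2 (-0.94), Myh3 (-0.92), Myl1 (-0.81) and Myoz2 (-0.65), each with its lowest reading on array 1. Myog and Myod1, regulators that define skeletal muscle, had -0.36 and -0.04. Apart from Casq1, Tnnt3, Tnnc2 and Nppa, these markers were named after their values were seen. The part of striated muscle in the differences of Des and Ldb3 was not tested.

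Markers of some other cells also differed between genotypes. Of 13 tested genes of intestinal epithelium 12 were called higher (median 5.41), and their list's summed signal was 25870, 41140 and 46720 on Get1 -/- arrays 1 to 3 and 302 to 588 in Get1 +/- bladders. In Get1 +/- bladders 2 genes of the list had a mean above the brightness filter, against 13 in Get1 -/-. Most were thus tested only through their Get1 -/- levels. The list was also chosen with earlier results known, so the count called carries no test of the list. The gut wall has smooth muscle of its own. Within the Get1 -/- arrays the gut signal was lowest on array 1, where the contractile genes were highest, and highest on array 3, where they were lowest. The part of gut muscle in the members' differences was not tested. Vascular mural markers, whose cells also make Acta2, Myh11 and Tagln, had a median of -0.11, with 0 of 10 called and 4 above 0. Their summed signals were 10000 to 10180 in Get1 -/- and 10670 to 13410 in Get1 +/- bladders. Rgs5, the brightest of them, carried much of these sums. It read 3849, 4327 and 4314 in Get1 -/- and 5465, 7676 and 6836 in Get1 +/- bladders. Rgs5 and Kcnj8, which mark pericytes, had -0.66 and -0.86, and Mcam 0.53 (limma adjusted p = 0.48, 0.521 and 0.621). Endothelial markers had a median of -0.33 (0 of 10 called), fibroblast markers -0.19 (0 of 12), interstitial cell markers 0.00 (0 of 4) and markers of nerve and glia -0.59 (0 of 9). Of 12 urothelial markers 1 was called lower, Upk2, while 6 had a difference above 0 and 6 one below 0. Upk2 and Upk1a had -3.03 and -2.36, and Krt19 and Cdh1 had 1.15 and 0.84. The summed signal of the list mixes these directions, and was 44840 to 54940 in Get1 -/- and 42210 to 57500 in Get1 +/- bladders. None of these lists tells how many muscle cells a sample held, so a shift in the makeup of the samples and a shift in RNA per muscle cell cannot be told apart.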

How the data were processed

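The deposited table holds 1 linear intensity per probe set and array. Per the submitters' processing notes the authors used PLIER 2.0 and Affymetrix Expression Console 1.1, in roles that are not stated, and the sources used here give neither the background step, the normalization between arrays nor a genome build. Of 45101 probe sets, 34945 had 1 symbol in the platform annotation, 932 several and 9160 none, and 64 were controls. For each gene the probe set brightest on average over the 6 arrays was used, values were taken as log2(value + 16), which understates differences of dim genes, and the 30% of genes with the lowest mean (log2 under 5.80) were left out. The genotypes were compared over all remaining genes by limma 3.58.1 under R 4.3.3 (two-sided, called at a Benjamini-Hochberg adjusted p under 0.05), which was tested on simulated data. Groups and array numbers came from the titles. The members and all lists were chosen with earlier results of these data known. Named are all 34 members, Grhl3 and, of each of the 11 further lists, up to 4 genes with the smallest p, and besides these some striated markers picked after their values were seen. List genes without a named probe set were not analysed here. A total of 17 alternative settings was tried, 1 of them added after seeing the data.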

Additional observations from a re-analysis of the deposited data

How the results depend on the processing

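In all 17 alternative settings 0 members were called in either direction, the lowest adjusted p of any member being 0.0639 (limma with trend and robust fitting). In the main fit, at an unadjusted p under 0.05, limma gave 5 members higher (14.7%) and 0 lower, against 3.63% and 4.3% of all genes. This count was not made in the alternative settings. The median difference of the members lay between 0.15 and 0.36, lowest without Get1 -/- array 1 and Get1 +/- array 6 together, a setting chosen after seeing the data, and highest without Get1 -/- array 3. Members whose groups did not overlap numbered 5 with median centring of each array and 5 with probe sets that carry no suffix (29 members tested). In the main fit there were 8 (23.5%), all higher in Get1 -/-, against 6.07% of all genes. The share over all genes was not counted in the other settings. Signs turned for 12 uncalled members in 33 of 572 gene values. With 1 array left out the differences ranged from -0.0357 to 0.14 (Acta2), from -0.42 to 0.0226 (Kcnmb1), from -0.0018 to 0.15 (Myh11), from -0.0072 to 0.54 (Myl9), from -0.0682 to 0.10 (Mylk), from -0.0954 to 0.65 (Myocd), from -0.0589 to 0.37 (Pdlim7), from -0.11 to 0.40 (Pln), from -0.0753 to 0.32 (Ppp1r14a), from -0.24 to 0.11 (Srf), from -0.0451 to 0.17 (Tpm1) and from -0.0197 to 0.11 (Tpm2). With array weights turned values were -0.0045 (Acta2), 0.0024 (Kcnmb1), -0.0344 (Mylk), -0.0095 (Myocd) and -0.0624 (Ppp1r14a). With all probe sets averaged turned values were 0.49 (Kcnmb1) and -0.11 (Pln). With median centring the turned value was 0.0132 (Srf). Without arrays 1 and 6 together turned values were -0.0592 (Acta2), 0.10 (Kcnmb1), -0.0232 (Myh11), -0.14 (Myl9), -0.0696 (Mylk), -0.28 (Myocd), -0.24 (Ppp1r14a), -0.041 (Tpm1) and -0.0309 (Tpm2). The cause was not tested. Casq1, of the striated list, passed with median centring, trend and robust fitting, and array weights (adjusted p = 0.0412, 0.0494 and 0.0257, limma). No paired analysis was possible because the array numbers in the titles are not shared between genotypes.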
